A study of Mus musculus with 18 samples.

Results

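The BMP and ALK1 pathway loci are the accessible chromatin regions of 10 genes: the ligands Bmp2, Bmp6 and Bmp10, the extracellular regulator Bmper, the receptor genes Bmpr2, Acvrl1 and Eng, the inhibitory SMAD gene Smad6 and the target genes Id1 and Id3. Peaks of all 18 ATAC-seq lists that overlapped by at least 1 bp were merged into regions, regions with a peak in at least 2 lists were kept, and a region was assigned to a gene when the gene's transcription start site (TSS) was the nearest one or when the region lay within the gene body. This gave 83 of 47338 regions. Regions were assigned by position and not by any measured value. Smad6 held 17 regions, Bmper 11, Id1 10, Bmpr2 9, Bmp2 8, Acvrl1 8, Eng 7, Bmp6 7, Bmp10 3 and Id3 3.

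The lists came from lung endothelial cells (ECs) of Col1α1-GFP reporter mice on the FVB strain, both sexes mixed, with each list from a separate mouse. The sham groups held 5 young and 4 aged mice (Young Sham, Aged Sham) and the bleomycin groups 4 young and 5 aged mice (Young Bleo, Aged Bleo). Age was 2 months for the young groups and 18 months for the aged groups. Bleo mice received a single intratracheal dose of about 1 U/kg bleomycin where sham mice received PBS. All lungs were taken on day 30, and cells were sorted as negative for CD45, EpCAM (CD326) and GFP and positive for CD31. The GFP gate removes cells with an active collagen I reporter from all groups alike.

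Bone morphogenetic proteins (BMPs) are secreted dimers that bring type I and type II serine/threonine kinase receptors together, after which the type I receptor phosphorylates SMAD1, SMAD5 and SMAD8 and these enter the nucleus with SMAD4. In ECs the main type I receptor for circulating BMP9 and BMP10 is ALK1, the product of Acvrl1, acting with BMPR2 and the coreceptor endoglin. Inherited loss of function in BMPR2 is known for pulmonary arterial hypertension, and of ACVRL1 or ENG for hereditary hemorrhagic telangiectasia.

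The deposited lists differed in depth and sequencing lane as well as in group. They held 30073 to 38747 peaks in Young Sham, 33980 to 39420 in Young Bleo, 25793 to 32220 in Aged Sham and 21050 to 40883 in Aged Bleo mice, with a median of 33 to 95 fragments at the summit of regions shared by all lists. Aged Bleo mice 1 and 2 gave the 2 deepest lists of their group and mice 3 to 5 lists of 21050 to 29049 peaks. A code in the names of the lists was read as the sequencing lane, which no label states. By this code all Young Sham mice were on lane 8 with Young Bleo mouse 4. Young Bleo mice 1 to 3 shared lane 7 with Aged Sham mice 1 to 3, and all Aged Bleo mice shared lane 6 with Aged Sham mouse 4, so that most comparisons cannot be told apart from lane. With lane in a limma fit, Young Bleo is set against Young Sham through Young Bleo mouse 4 alone and Aged Bleo against Aged Sham through Aged Sham mouse 4 alone, and comparisons across age rest on one or both of these mice. Values with lane as covariate below therefore rest on single mice, which are assumed to vary like the others. Of 10 endothelial marker genes, 7 to 10 had a peak at the promoter in each list, and 0 of 6 leukocyte markers had one in any list. Of 6 epithelial markers Foxj1 alone, and of 6 fibroblast and mural markers Pdgfra alone, had a promoter peak, each in every list. Because the samples are bulk, fewer cells with a locus open and less open chromatin per cell cannot be told apart.

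SMAD1 and SMAD5 are known to bind GC-rich GGCGCC sites, which in BMP-responsive enhancers lie a fixed distance from a SMAD4 site that reads GTCT. The arrangement GGCGCCNNNNNGTCT was searched on both strands in the 200 bp around the strongest summit of every region. It was found in 3 of the 83 member regions (3.61%) and in 21 of all 47338 regions (0.0444%), and all 3 belonged to the Id genes, where this element is textbook knowledge. They are the region 3.1 kb downstream of the Id1 TSS (chr2:152739364-152739563), the intronic region 1.0 kb into Id3 (chr4:136144648-136144847) and the region 4.3 kb downstream of the Id3 TSS (chr4:136147810-136148009). The windows of the other 8 genes held none. The windows are shown because they carry the element. They are from GRCm38/mm10, plus strand, 5′ to 3′, and capitals mark GGCGCC and GTCT of the element.
Id1 downstream region: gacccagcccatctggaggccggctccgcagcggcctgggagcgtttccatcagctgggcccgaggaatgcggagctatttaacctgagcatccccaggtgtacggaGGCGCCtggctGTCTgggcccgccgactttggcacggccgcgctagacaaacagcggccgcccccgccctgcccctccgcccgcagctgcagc
Id3 intronic region: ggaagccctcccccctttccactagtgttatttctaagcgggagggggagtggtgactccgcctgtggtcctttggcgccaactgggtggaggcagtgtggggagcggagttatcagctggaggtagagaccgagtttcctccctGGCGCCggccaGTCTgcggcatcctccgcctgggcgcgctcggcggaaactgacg
Id3 downstream region: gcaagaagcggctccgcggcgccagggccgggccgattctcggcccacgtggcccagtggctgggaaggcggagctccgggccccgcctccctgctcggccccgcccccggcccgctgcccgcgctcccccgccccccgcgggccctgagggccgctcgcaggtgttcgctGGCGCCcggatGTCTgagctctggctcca

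Single motifs were searched in the same windows on both strands. The ETS core CAGGAAG, the kind of site that ERG binds, was present in 17 of 83 member windows (20.5%) and in 20% of all 47338 windows, and the AP-1 site TGAGTCA in 5 (6.02%) and 6.69%. GGCGCC, which overlaps the longer element above, was present in 11 (13.3%) and 9.05%, and the SMAD-binding element CAGAC, the reverse complement of which holds GTCT, in 42 (50.6%) and 39.7%. At the 8 member promoters there were 0 ETS cores and 0 AP-1 sites, against 10% and 2.35% of all promoters. The windows of 6 further regions are shown because the values below turn on them, with capitals for every match to these 4 motifs on either strand (GRCm38/mm10, plus strand). They are the distal Bmp2 region (chr2:133351417-133351616), the upstream and intronic Bmper regions (chr9:23027711-23027910 and chr9:23250148-23250347), the Bmpr2 promoter (chr1:59763342-59763541), the Acvrl1 intron (chr15:101134393-101134592) and the Smad6 promoter (chr9:64022962-64023161). The Bmper intronic window held 4 CAGAC matches and the Bmper upstream window a single ETS core.
Bmp2 distal region: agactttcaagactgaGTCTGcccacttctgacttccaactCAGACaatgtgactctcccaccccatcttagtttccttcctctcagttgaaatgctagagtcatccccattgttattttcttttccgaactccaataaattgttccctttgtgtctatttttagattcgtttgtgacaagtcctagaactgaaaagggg
Bmper upstream region: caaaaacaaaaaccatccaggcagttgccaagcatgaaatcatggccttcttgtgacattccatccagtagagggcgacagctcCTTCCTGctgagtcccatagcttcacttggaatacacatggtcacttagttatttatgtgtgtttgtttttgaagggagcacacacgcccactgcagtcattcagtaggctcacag
Bmper intronic region: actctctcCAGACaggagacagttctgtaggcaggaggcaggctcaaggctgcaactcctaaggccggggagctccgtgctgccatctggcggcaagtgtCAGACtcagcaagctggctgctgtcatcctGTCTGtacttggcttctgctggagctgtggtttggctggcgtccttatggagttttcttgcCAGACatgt
Bmpr2 promoter region: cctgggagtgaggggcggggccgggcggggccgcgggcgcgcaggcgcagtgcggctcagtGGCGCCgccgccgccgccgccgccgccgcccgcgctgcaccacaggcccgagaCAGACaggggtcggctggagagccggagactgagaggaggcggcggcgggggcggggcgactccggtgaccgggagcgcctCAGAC
Acvrl1 intronic region: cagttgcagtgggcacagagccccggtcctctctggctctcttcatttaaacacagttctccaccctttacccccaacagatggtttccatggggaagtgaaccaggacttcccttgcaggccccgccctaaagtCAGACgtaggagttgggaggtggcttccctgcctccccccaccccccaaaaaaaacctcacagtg
Smad6 promoter region: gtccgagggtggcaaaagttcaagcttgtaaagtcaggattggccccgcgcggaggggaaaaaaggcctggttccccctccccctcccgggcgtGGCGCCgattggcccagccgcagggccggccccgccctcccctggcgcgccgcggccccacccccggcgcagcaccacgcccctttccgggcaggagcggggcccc

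The member regions lay farther from start sites than accessible regions in general. Only 8 of 83 (9.64%) were promoters, meaning from 1000 bp before a TSS to 100 bp after it, against 21.3% of all regions. A further 44 (53%) were intergenic against 34.9%. Introns held 30 (36.1% against 36.9%), UTRs 1 (1.2% against 3.47%) and exons 0 (against 3.4%). Regions more than 50 kb from the nearest TSS made up 32.5% of the members and 21.7% of all regions. These shares describe position and were not tested.

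Presence varied by gene. Peaks in all 18 lists were found at 27 member regions (32.5%, against 36.8% of all regions), and 23 regions (27.7%, against 23.4%) had a peak in at most 5 lists. All 3 regions of Id3 and 5 of 7 of Eng had a peak in every list, as did 4 of 8 of Acvrl1, 4 of 10 of Id1, 4 of 17 of Smad6, 3 of 11 of Bmper, 2 of 9 of Bmpr2 and 2 of 7 of Bmp6. Bmp2 and Bmp10 had none, with at most 16 and 12 lists at any region. Bmp10, a ligand made mainly by heart muscle of the right atrium, had no promoter peak, and its 3 regions lay 22.3, 26.7 and 28.5 kb downstream of the TSS.

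**Figure D1:**
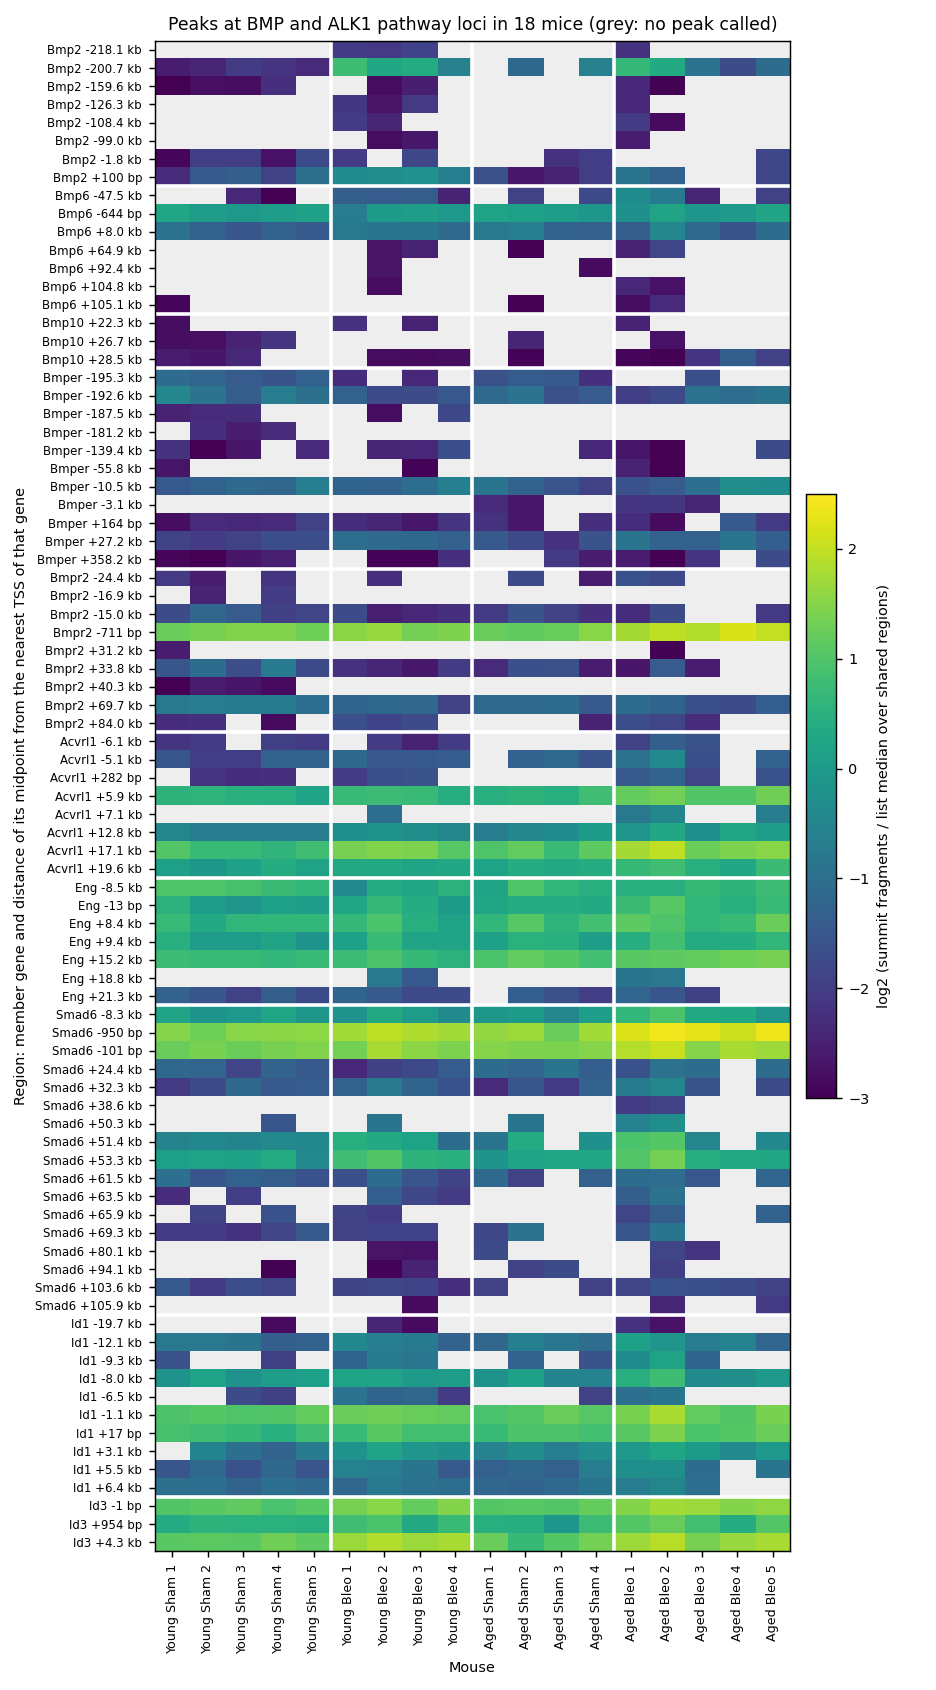
Summit fragments at each of the 83 member regions (vertical axis, grouped by gene and labelled by distance from the TSS) in each of the 18 mice (horizontal axis, by group), with the colour giving log2 of the fragments over the list's median over shared regions and grey marking no called peak. The 3 Id3 regions are coloured in every mouse, whereas each of the 8 Bmp2 and 3 Bmp10 regions is grey in some mice.

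For each region the share of mice with a peak was compared between groups by Fisher's exact test (two-sided), with a region counted at an unadjusted p of at most 0.05. In Aged Sham against Young Sham mice 0 member regions were called in more mice and 3 in fewer, where 0.264% and 4.9% of all regions were. In Young Bleo against Young Sham the counts were 2 and 2 (3.98% and 1.96% of all regions), and in Aged Bleo against Young Sham 0 and 3 (0.201% and 3.01%). In Aged Bleo against Aged Sham they were 2 and 1 (0.475% and 0.41%), and in Aged Bleo against Young Bleo 0 and 0 (0.123% and 2.44%). Of 83 regions, 3 are 3.61% and 2 are 2.41%, so that the members' shares lay near the background in the comparisons with Young Sham; in Aged Bleo against Aged Sham they lay above it by 1 or 2 regions. No region of the 47338, member or not, passed Benjamini-Hochberg adjustment in any of the 5 comparisons, where the smallest p that 5 mice against 5 or 4 can give is 0.00794 and the smallest adjusted p was 0.535.

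Those regions had an exact Fisher p of 0.0476 each, and the adjusted p over all regions was 0.801 to 1. Acvrl1 at 6.1 kb upstream was called in 4 of 5 Young Sham and 0 of 4 Aged Sham mice, and Bmp2 at 159.6 kb upstream in 4 of 5 and 0 of 4. The Bmpr2 intronic region 40.3 kb downstream of the TSS was called in 4 of 5 Young Sham mice and in 0 of the other 13. Among young mice, the Bmp2 regions 218.1 and 126.3 kb upstream were each called in 0 of 5 Young Sham and 3 of 4 Young Bleo mice. The 3 were mice 1 to 3 on lane 7, and mouse 4, on lane 8 with the Young Sham mice, had no peak at either. Bmp10 at 26.7 kb downstream was called in 4 of 5 Young Sham and 0 of 4 Young Bleo mice. With Aged Bleo mice, Bmp2 at 1.8 kb upstream was called in 5 of 5 Young Sham and 1 of 5 Aged Bleo mice, and Bmper at 195.3 kb upstream in 5 of 5 Young Sham, 4 of 4 Aged Sham and 1 of 5 Aged Bleo mice. Acvrl1 at 0.3 kb and Bmp10 at 28.5 kb downstream were called in 4 of 5 and 5 of 5 Aged Bleo mice and in 0 and 1 of 4 Aged Sham mice. These regions were weak, with at most 41 fragments at the summit in any mouse.

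Strength was first read as the percentile of a peak's fold enrichment over local background among the 17432 regions shared by all lists, 27 of them members, and tested with limma. Between Aged Bleo and Young Sham mice 2 members rose and 0 fell, where 10.6% of all shared regions changed. In the other comparisons 0 members changed, where 1.21% of shared regions did in Aged Sham against Young Sham, 2.75% in Young Bleo against Young Sham, 0.344% in Aged Bleo against Aged Sham and 0.155% in Aged Bleo against Young Bleo. At an unadjusted limma p below 0.05 the members numbered 2, 5, 1 and 5 of 27 in those 4 comparisons (7.41%, 18.5%, 3.7% and 18.5%), where 15.9%, 17.4%, 15.9% and 17% of all shared regions passed. In Aged Bleo against Young Sham they numbered 8 (29.6%, against 27.6%). The response to bleomycin differed with age (limma interaction) at 0 members and at 0.00574% of shared regions, and unadjusted at 1 member (3.7%) and at 9.12%. The members' shares thus lay near or below those of all shared regions.

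The 2 members were an intronic region of Bmper and a promoter region of Smad6. Bmper at 27.2 kb downstream stood at percentiles 15, 9.9, 11.4, 15.8 and 12.7 in the Young Sham mice and at 48.3, 41.8, 21.1, 31.5 and 22.1 in the Aged Bleo mice. Smad6 at 950 bp upstream stood at 29.8, 18.6, 34.5, 31 and 34.9 in Young Sham and at 37.0, 29.1, 52.4, 56.6 and 59.3 in Aged Bleo mice. The groups did not overlap for Bmper and overlapped for Smad6 through Aged Bleo mouse 2. In the deep lists of Aged Bleo mice 1 and 2 Smad6 stood at 37.0 and 29.1, near the Young Sham values. In the shallow lists of mice 3 to 5 it stood at 52.4, 56.6 and 59.3. Bmper had the opposite order, with 48.3 and 41.8 in the deep lists and 21.1, 31.5 and 22.1 in the shallow ones. The part of list depth in these percentiles was not tested. The difference was 20.01 ± 5.75 percentile points (SE, limma adjusted p = 0.0373) for Bmper and 17.15 ± 5.11 (limma adjusted p = 0.0425) for Smad6, and the adjusted p reached 0.0815 and 0.111 when single mice were left out. With lane as a covariate neither was called: the Bmper difference was -10.12 ± 14.46 (limma adjusted p = 0.884) and the Smad6 difference 26.43 ± 14.76 (limma adjusted p = 0.66), so that the sign changed for Bmper and the size grew for Smad6.

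Fold enrichment divides the summit by its local surroundings, so a second scale was added after the data had been seen. The number of fragments at each summit was recovered from the fold enrichment and the −log10 p, divided by the list's median over shared regions (relative fragments), and tested with limma on the log2 scale over the 26574 regions that exceeded the detection limit of the shallowest list, 0.273 times the median, in at least 4 lists. Of the 83 members 53 met this and were fitted. Regions of the named genes that are called on this scale only were named after their values had been seen. A region of low level that passed through its high group had to differ, so counts over the 53 are given as a description.

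On this scale, without lane in the fit, more members were higher than lower in each comparison that includes a Bleo group. Only Young Bleo against Young Sham and Aged Bleo against Aged Sham set bleomycin against sham at the same age. Aged Bleo against Young Sham differs in age as well, and in Aged Bleo against Young Bleo both groups had bleomycin. In Young Bleo against Young Sham 9 rose and 5 fell, where 8.13% and 6.08% of all fitted regions did. In Aged Bleo against Young Sham 18 rose and 2 fell (11.7% and 10.1% of all regions), in Aged Bleo against Aged Sham 7 rose and 0 fell (5.65% and 3.13%), and in Aged Bleo against Young Bleo 4 rose and 1 fell (0.896% and 1.29%). In Aged Sham against Young Sham 0 rose and 0 fell (2.42% and 3.51%), and at an unadjusted limma p below 0.05 stood 5 members (9.43%) against 21% of all regions. The response to bleomycin differed with age at 0 members and at 0.324% of regions, and unadjusted at 9 members (17%) and at 12.7% of regions. Over the 27 members with a peak in every list, where no value was set to the limit, 15 rose and 1 fell in Aged Bleo against Young Sham (55.6% and 3.7%), where 17.2% and 11.3% of the 17419 shared regions fitted did in the same fit. The counts over the 53 include calls in which 1 group lay wholly at the limit: the Bmp2 region 200.7 kb upstream, the Bmpr2 region 33.8 kb downstream, the Bmper region 195.3 kb upstream in Young Bleo mice and the Acvrl1 region 7.1 kb downstream. Those comparisons are given below as values without a test. The median member difference in that comparison was 0.35 on the log2 scale over the 53, and the median of all 26574 regions was 0.01.

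**Figure D2:**
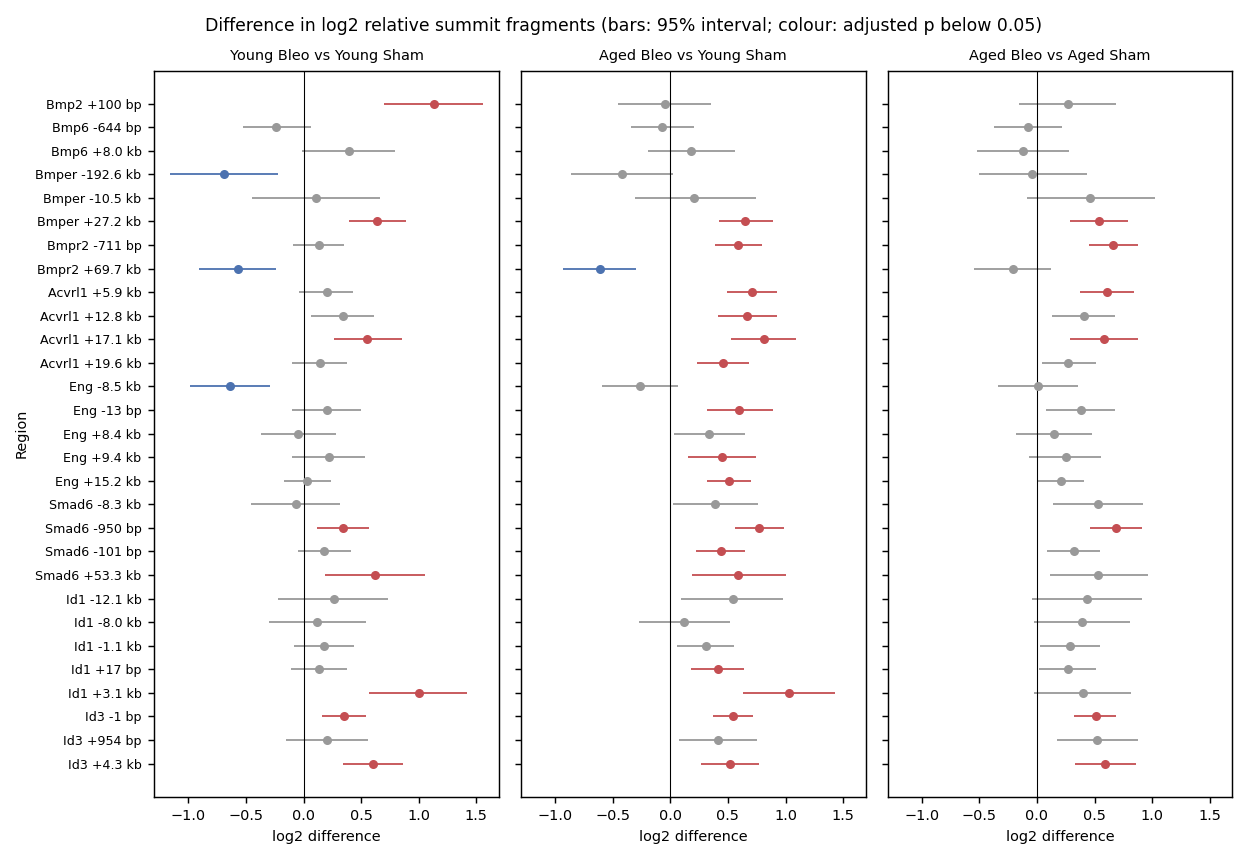
Difference in log2 relative summit fragments (horizontal axis) for member regions with a peak in every list and for the Bmp2 promoter and the Id1 region 3.1 kb downstream (vertical axis), in Young Bleo and Aged Bleo mice against Young Sham and Aged Bleo against Aged Sham mice, with points for the limma estimate, bars for its 95% interval and red (higher) or blue (lower) for an adjusted p below 0.05. In Aged Bleo against Young Sham mice most coloured points lie above 0 and the Bmpr2 region 69.7 kb downstream lies below it, at -0.61.

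Lane moved with these results. With lane as a limma covariate, none of the 53 members passed in any comparison except the Bmpr2 region 69.7 kb downstream of the TSS in Young Bleo against Young Sham, where the value is that of Young Bleo mouse 4 raised to the limit. Of all 26574 regions 63 higher and 34 lower passed in Young Bleo against Young Sham and 0 higher and 3 lower in Aged Bleo against Young Sham. The median member difference in log2 relative fragments was 0.28 with lane and 0.30 without it in Aged Bleo against Aged Sham. Against Young Sham it was 0.00 with lane and 0.18 without for Young Bleo, 0.115 and 0.35 for Aged Bleo, and -0.182 and 0.01 for Aged Sham mice. For Aged Bleo against Young Bleo it was 0.114 and 0.16. Within lane 8, Young Bleo mouse 4 lay above all 5 Young Sham mice at 11 of the 53 regions, below all at 12 and among them at 30. Within lane 6, all 5 Aged Bleo mice lay above Aged Sham mouse 4 at 15 regions and below at 0, with 38 overlapping. Within lane 7, where no like-aged pair exists, 3 Young Bleo mice lay above 3 Aged Sham mice at 20 regions and below at 4. The part of lane in the pooled differences was not tested beyond these values.

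Bmp2, a ligand known to act on many cell types including ECs, had 2 regions high in Young Bleo mice. Its distal region 200.7 kb upstream, whose window is printed above, had 14, 18, 20, 19 and 12 fragments at the summit in the 5 Young Sham mice and 127, 104, 121 and 51 in the 4 Young Bleo mice. In Aged Sham mice 2 and 4 it had 31 and 47 with no peak in mice 1 and 3, and in the Aged Bleo mice 132, 111, 29, 10 and 22. In relative fragments every Young Bleo mouse (0.662 to 1.74) and every Aged Bleo mouse (0.303 to 1.59) stood above every Young Sham mouse (0.167 to 0.241), while the 2 Aged Sham mice with a peak (0.449 and 0.653) lay within the Aged Bleo range. Every Young Sham value lay under the limit of 0.273 and was raised to it, so no test is given. The fitted log2 differences from that limit were 2.09 for Young Bleo and 1.35 for Aged Bleo mice. With lane as covariate they were 1.28 and -0.76, and within lane 8 Young Bleo mouse 4 stood at 0.662.

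The Bmp2 promoter region, centred 100 bp downstream of the TSS (chr2:133551993-133552525), was high in Young Bleo mice alone. Its summit had 17, 35, 33, 23 and 31 fragments in Young Sham, 58, 70, 80 and 49 in Young Bleo, 16, 11, 9 and 18 in Aged Sham, and 45, 35 and 13 in Aged Bleo mice 1, 2 and 5, with no peak in mice 3 and 4. In relative fragments the 4 Young Bleo mice (0.636 to 0.86) stood above all 14 others, of which the highest was Aged Bleo mouse 1 at 0.542. It rose by 1.13 ± 0.20 (2.19-fold, limma adjusted p = 0.00183) in Young Bleo against Young Sham and was lower by -1.18 ± 0.20 (limma adjusted p = 0.00558) in Aged Bleo against Young Bleo mice. In Aged Bleo against Aged Sham mice the difference was 0.27 ± 0.20 (limma adjusted p = 0.453). Only 3 of 5 Young Sham and 3 of 5 Aged Bleo mice lay above the limit of 0.273. Aged Sham mice stood at 0.159 to 0.32, with a mean of 0.227. Values under the limit were raised to it, so the differences at this region, including the response that follows, rest in part on the limit. The response to bleomycin in aged minus young mice was -0.86 (95% CI -1.47 to -0.26, limma adjusted p = 0.206), so that a difference of the responses was not established over all regions. Lane as covariate left 0.85 (limma adjusted p = 0.353) in Young Bleo against Young Sham and -1.2 (limma adjusted p = 0.387) in Aged Bleo against Young Bleo.

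The other 6 regions of Bmp2 reached 26 fragments at most. Those 218.1, 126.3, 108.4 and 99.0 kb upstream had no peak in any sham mouse, young or aged, and peaks of 12 to 25 fragments in 2 or 3 of 4 Young Bleo mice and in 1 or 2 of 5 Aged Bleo mice. All these peaks were in Young Bleo mice 1 to 3, on lane 7, or in Aged Bleo mice 1 and 2, the deepest lists of their group. Young Bleo mouse 4, on lane 8 with the Young Sham mice, had none of them.

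Bmp6, a ligand that liver ECs make to control hepcidin, had a promoter region centred 644 bp upstream with a peak in every list. Its summit had 98, 98, 79, 87 and 67 fragments in Young Sham, 45, 85, 98 and 74 in Young Bleo, 58, 75, 53 and 68 in Aged Sham and 70, 100, 50, 32 and 53 in Aged Bleo mice. The 4 groups overlapped in relative fragments, with means of 1.05, 0.908, 1.06 and 1.01, and the log2 difference from Young Sham mice by limma was -0.24 (95% CI -0.53 to 0.06) for Young Bleo and -0.07 (95% CI -0.34 to 0.21) for Aged Bleo mice. Its strongest region outside the promoter by percentile of fold enrichment, in the intron 8.0 kb downstream, had 21 to 44 fragments in the sham mice of both ages, 36 to 51 in Young Bleo and 11 to 63 in Aged Bleo mice, and passed in no comparison. Of the 3 fitted Bmp6 regions none passed, and the 4 regions from 64.9 to 105.1 kb downstream, nearer to another gene's TSS, had a peak in 2 to 5 lists.

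**Figure D3:**
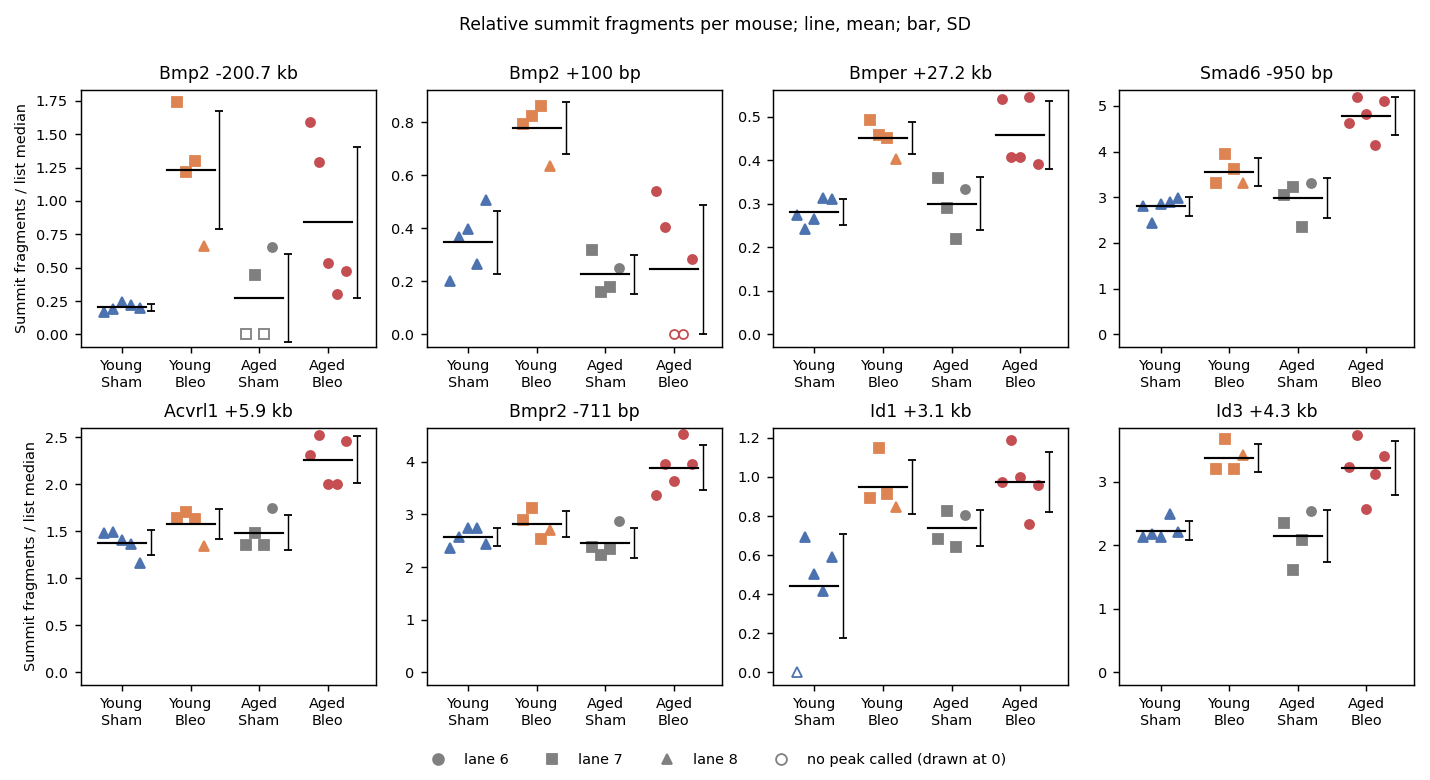
Relative summit fragments (fragments at the summit divided by the list's median over shared regions, linear axis) in each mouse by group, for 8 regions of Bmp2, Bmper, Smad6, Acvrl1, Bmpr2, Id1 and Id3, with marker shape for the sequencing lane, a line for the group mean and a bar for the SD over mice. Open markers are mice with no called peak, drawn at 0 and entering the mean and SD as 0, and the Bmp2 promoter stands at 0.636 to 0.86 in the Young Bleo mice and at 0.542 or lower in every other mouse.

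Bmper encodes a secreted protein that binds BMPs and tunes their action on ECs, and its regions moved in both directions. The intronic region 27.2 kb downstream had 23, 23, 22, 27 and 19 fragments in Young Sham, 36, 39, 42 and 31 in Young Bleo, 18, 20, 11 and 24 in Aged Sham and 45, 35, 22, 18 and 18 in Aged Bleo mice. In relative fragments both Bleo groups (0.403 to 0.493 and 0.391 to 0.545) stood above both sham groups (0.242 to 0.314 and 0.22 to 0.36). It rose by 0.64 ± 0.12 in Young Bleo against Young Sham (1.56-fold, limma adjusted p = 0.00223), by 0.65 ± 0.11 in Aged Bleo against Young Sham (limma adjusted p = 0.000496) and by 0.54 ± 0.12 in Aged Bleo against Aged Sham (1.45-fold, limma adjusted p = 0.0103). The aged minus young response was -0.10 (95% CI -0.46 to 0.25). Within lanes, mouse 4 of Young Bleo stood at 0.403 against 0.242 to 0.314 on lane 8, and the Aged Bleo mice at 0.391 or higher against 0.333 on lane 6. With lane as covariate the 3 differences were 0.48, 0.31 and 0.44, with limma adjusted p of 0.369, 0.947 and 0.755. By percentile of fold enrichment the Young Bleo difference from Young Sham was 18.94 without lane (limma adjusted p = 0.113) and 4.18 with it (limma adjusted p = 0.995), and the sign change for Aged Bleo mice is given above.

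The upstream Bmper region at 195.3 kb went the other way. It had 40, 41, 31, 29 and 25 fragments in Young Sham, 15 and 18 in Young Bleo mice 1 and 3 with no peak in mice 2 and 4, 16, 26, 18 and 15 in Aged Sham, and 17 in Aged Bleo mouse 3 with no peak in the other 4. In relative fragments the 2 Young Bleo mice with a peak (0.194 and 0.205) stood below all Young Sham mice (0.337 to 0.476). All 4 Young Bleo values lay under the limit, so no test against Young Sham is given. In Aged Bleo against Young Sham mice it fell by 0.52 on the log2 scale (limma adjusted p = 0.00136) with 4 of 5 Aged Bleo mice at the limit, and with lane as covariate the difference was -0.16 (limma adjusted p = 0.965). Its neighbour 192.6 kb upstream fell by 0.69 in Young Bleo against Young Sham (limma adjusted p = 0.0455), and leaving out Young Sham mouse 1 or any of several other mice ended that call. The strongest Bmper region outside the promoter by list percentile, 10537 bp upstream, had 30, 39, 38, 38 and 39 fragments in Young Sham and 27, 32, 27, 27 and 37 in Aged Bleo mice and passed in no comparison. The region at the start site (centred 164 bp downstream and classed as UTR) had at most 19 fragments in any mouse.

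Bmpr2 encodes the type II receptor, and its promoter region, centred 711 bp upstream and printed above, was among its 2 regions with a peak in every list. The summit had 198, 245, 228, 236 and 148 fragments in Young Sham, 212, 266, 236 and 208 in Young Bleo, 119, 154, 117 and 207 in Aged Sham and 280, 340, 196, 149 and 182 in Aged Bleo mice. Relative to depth, all Aged Bleo mice (3.37 to 4.52) stood above all 13 others (2.23 to 3.13). The log2 difference of Aged Bleo was 0.59 ± 0.10 against Young Sham (1.51-fold, limma adjusted p = 0.000318), 0.66 ± 0.10 against Aged Sham (1.58-fold, limma adjusted p = 0.0021) and 0.46 ± 0.10 against Young Bleo (limma adjusted p = 0.0255). Young Bleo against Young Sham gave 0.13 ± 0.10 (95% CI -0.09 to 0.35), and the aged minus young response was 0.53 (95% CI 0.22 to 0.84, limma adjusted p = 0.127). Every Aged Bleo mouse was on lane 6, where Aged Sham mouse 4 stood at 2.88; with lane as covariate the 3 differences of Aged Bleo were 0.20, 0.43 and 0.13, with limma adjusted p of 0.952, 0.672 and 0.904. By fold enrichment the percentile difference against Young Sham was 9.07 ± 4.47 (limma adjusted p = 0.201).

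Inside the gene, the Bmpr2 region 69.7 kb downstream was lower in both Bleo groups than in Young Sham mice, and in Aged Bleo against Aged Sham mice it did not pass. This intronic region had 49, 60, 49, 52 and 30 fragments in Young Sham, 31, 38, 41 and 20 in Young Bleo, 23, 32, 24 and 26 in Aged Sham and 40, 37, 17, 10 and 18 in Aged Bleo mice. In relative fragments Young Sham (0.492 to 0.632) stood above every mouse of the other 3 groups (0.26 to 0.482). Against Young Sham it fell by 0.57 in Young Bleo mice (limma adjusted p = 0.0224). It fell by 0.61 in Aged Bleo mice (limma adjusted p = 0.00696), and the Aged Sham difference was -0.40 ± 0.16 (limma adjusted p = 0.151). Aged Bleo against Aged Sham gave -0.21 ± 0.16 (limma adjusted p = 0.439). With lane as covariate the Young Bleo difference was -1.08, which is Young Bleo mouse 4 alone (0.26, under the limit and apart from the other 3 at 0.425 to 0.447) against Young Sham, so no test is given. Without lane, leaving out Young Sham mouse 2 or Young Bleo mouse 4 brought the limma adjusted p to 0.0709 at most. The intronic region 33.8 kb downstream had 29, 46, 26, 51 and 18 fragments in Young Sham and 16, 16, 15 and 19 in Young Bleo mice, the latter all under the limit, and was fitted only because of its level in Young Sham mice.

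Acvrl1 encodes ALK1, and 7 of its 8 regions were fitted in relative fragments. Of these, 4 rose in Aged Bleo against Young Sham mice, where 11.7% of all fitted regions did. The 4 were the Acvrl1 regions with a peak in every list, and in the fit over shared regions only 17.2% of all regions rose. A further call, at 7.1 kb downstream, is not counted here because every Young Sham mouse lay at the limit. By percentile of fold enrichment none of the 4 regions passed in that comparison, with limma adjusted p from 0.0888 to 0.694. The intronic region 5.9 kb downstream, printed above, had 124, 142, 117, 118 and 71 fragments in Young Sham, 120, 145, 152 and 104 in Young Bleo, 68, 102, 68 and 126 in Aged Sham and 192, 218, 108, 66 and 113 in Aged Bleo mice. Relative to depth the Aged Bleo mice (2.0 to 2.53) stood above all 13 others (1.16 to 1.75). The difference was 0.71 ± 0.11 against Young Sham (1.63-fold, limma adjusted p = 0.000146), 0.61 ± 0.11 against Aged Sham (limma adjusted p = 0.00441) and 0.51 ± 0.11 against Young Bleo (limma adjusted p = 0.0219). With lane as covariate the first of these was 0.09 ± 0.26 (limma adjusted p = 0.981), and on lane 6 the lowest Aged Bleo mouse at 2.0 compared with 1.75 in Aged Sham mouse 4.

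The intergenic region 17.1 kb downstream, centred just past the end of Acvrl1, rose in both Bleo groups. It had 171, 157, 137, 129 and 108 fragments in Young Sham, 188, 235, 248 and 162 in Young Bleo, 99, 156, 82 and 159 in Aged Sham and 282, 338, 129, 88 and 133 in Aged Bleo mice. In relative fragments both Bleo groups (2.1 to 2.76 and 2.39 to 3.93) stood above Young Sham (1.5 to 2.04). The difference from Young Sham was 0.55 ± 0.14 for Young Bleo (1.47-fold, limma adjusted p = 0.0152) and 0.81 ± 0.13 for Aged Bleo mice (1.76-fold, limma adjusted p = 0.000331). It was 0.58 ± 0.14 in Aged Bleo against Aged Sham (limma adjusted p = 0.0165). The Young Bleo call was lost without Young Bleo mouse 2 and the last without Aged Sham mouse 3. The regions 12.8 and 19.6 kb downstream rose in Aged Bleo against Young Sham by 0.67 (limma adjusted p = 0.000884) and 0.46 (limma adjusted p = 0.00534). With lane as covariate these differences were -0.07 (limma adjusted p = 0.989) and 0.34 (limma adjusted p = 0.94). By percentile of fold enrichment the Aged Bleo difference from Young Sham was 1.28 (limma adjusted p = 0.694) at 12.8 kb. At 19.6 kb it was -2.03 (limma adjusted p = 0.644), so that neither region passed on that scale and the sign turned at 19.6 kb. The region 7.1 kb downstream had a peak in only 4 lists, with 48, 62 and 29 fragments in Aged Bleo mice 1, 2 and 5 and 42 in Young Bleo mouse 2, and was fitted only because of these.

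Eng encodes endoglin, the coreceptor that presents BMP9 and BMP10 to ALK1. Its promoter region, centred 13 bp upstream, had 121, 98, 76, 94 and 64 fragments in Young Sham, 87, 135, 123 and 77 in Young Bleo, 59, 92, 66 and 92 in Aged Sham and 139, 181, 84, 46 and 76 in Aged Bleo mice. In relative fragments Aged Bleo (1.39 to 2.1) and Young Sham (0.916 to 1.44) overlapped through Young Sham mouse 1. The difference was 0.60 ± 0.14 (1.52-fold, limma adjusted p = 0.00392), and against Aged Sham 0.38 ± 0.14 (limma adjusted p = 0.11). With lane as covariate the difference from Young Sham was 0.16. Of the 7 Eng regions, the 5 intronic ones within the gene body were nearer to another gene's TSS, and 2 had that of Eng as the nearest. The intronic region 15.2 kb downstream, the strongest Eng region outside the promoter by percentile of fold enrichment, rose by 0.51 ± 0.09 in Aged Bleo against Young Sham (limma adjusted p = 0.000704) and by 0.48 ± 0.10 against Young Bleo mice (limma adjusted p = 0.0154), the latter lost without Young Bleo mouse 3 or 4. Against Aged Sham it did not pass, with a difference of 0.21 over shared regions only (limma adjusted p = 0.187). Aged Sham mice (1.81 to 2.28) stood above Young Sham mice (1.56 to 1.71) in relative fragments there. The region 9.4 kb downstream rose by 0.45 in Aged Bleo against Young Sham (limma adjusted p = 0.0318), and 5 of the single-mouse omissions ended that call. With lane as covariate the Aged Bleo differences from Young Sham were 0.45 at 15.2 kb and 0.6 at 9.4 kb.

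The upstream Eng region at 8.5 kb was lower in Young Bleo mice. It had 166, 187, 154, 145 and 94 fragments in Young Sham and 56, 113, 111 and 111 in Young Bleo mice, or 1.54 to 1.98 against 0.767 to 1.44 times the list median, without overlap. It fell by 0.64 (limma adjusted p = 0.0164), and without Young Bleo mouse 1, the lowest, the adjusted p was 0.0641. Within lane 8 Young Bleo mouse 4 stood at 1.44 in relative fragments, below all Young Sham mice. By percentile of fold enrichment the difference was -16.25 without lane (limma adjusted p = 0.28) and 3.18 with it, so that the sign turned. In Aged Bleo mice this region had 114, 117, 87, 49 and 78 fragments. The log2 difference from Young Sham was -0.26 ± 0.16 (limma adjusted p = 0.246).

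Smad6 encodes an inhibitory SMAD that is itself induced by BMP signaling and limits it. Of its 17 regions 13 were fitted. The promoter region centred 950 bp upstream, printed above, had 236, 232, 237, 249 and 182 fragments in Young Sham, 242, 336, 336 and 255 in Young Bleo, 152, 223, 118 and 238 in Aged Sham and 384, 446, 261, 137 and 235 in Aged Bleo mice. Relative to depth the order was Young Sham (2.44 to 2.98) with Aged Sham (2.36 to 3.31), then Young Bleo (3.31 to 3.95), then Aged Bleo (4.15 to 5.19), with overlap only in the sham groups and at the value of 3.31 shared by Aged Sham mouse 4 and Young Bleo mouse 4. It was higher by 0.77 ± 0.10 in Aged Bleo against Young Sham (1.71-fold, limma adjusted p = 5.24e-05) and by 0.69 ± 0.11 against Aged Sham (1.61-fold, limma adjusted p = 0.00212). It was higher by 0.43 ± 0.11 against Young Bleo (limma adjusted p = 0.0435), and by 0.34 ± 0.11 in Young Bleo against Young Sham (limma adjusted p = 0.0413). The first call held with each mouse left out and gave 0.43 ± 0.28 with lane (limma adjusted p = 0.897), whereas the last 2 were lost in 10 and 7 of the 18 omissions. On lane 6 the Aged Bleo mice stood at 4.15 to 5.19 against 3.31 in Aged Sham mouse 4.

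The second Smad6 promoter region, centred 101 bp upstream, rose by 0.44 ± 0.10 in Aged Bleo against Young Sham (1.35-fold, limma adjusted p = 0.00543), from 2.37 to 2.74 times the list median in Young Sham to 2.85 to 4.13. The strongest region outside the promoter by percentile of fold enrichment, 8.3 kb upstream, had 97, 85, 79, 102 and 57 fragments in Young Sham and 130, 166, 67, 40 and 42 in Aged Bleo mice, and its difference of 0.39 (95% CI 0.02 to 0.76, limma adjusted p = 0.127) did not pass. The intronic region 53.3 kb downstream was above Young Sham by 0.62 for Young Bleo and 0.59 for Aged Bleo mice (limma adjusted p = 0.0484 and 0.0341), and both calls were lost in several omissions. The other Smad6 regions passed in no comparison.

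Id1 and Id3 encode helix-loop-helix proteins that lack a DNA-binding domain and are direct targets of SMAD1 and SMAD5. The downstream Id1 region at 3.1 kb, which holds the element printed above, had 66, 42, 36 and 36 fragments in Young Sham mice 2 to 5 and no peak in mouse 1, 65, 98, 85 and 65 in Young Bleo, 34, 57, 32 and 58 in Aged Sham and 81, 102, 54, 25 and 44 in Aged Bleo mice. In relative fragments both Bleo groups (0.844 to 1.15 and 0.758 to 1.19) stood above the Young Sham mice with a peak (0.419 to 0.695), and Aged Sham (0.64 to 0.826) lay between them with overlap. Against Young Sham mice it rose by 1.00 ± 0.20 in Young Bleo (1.99-fold, limma adjusted p = 0.00412). In Aged Bleo mice it rose by 1.03 ± 0.19 (2.04-fold, limma adjusted p = 0.000908), and Aged Bleo against Aged Sham gave 0.40 ± 0.20 (limma adjusted p = 0.243). Young Sham mouse 1, with no peak, entered at the limit, and the differences without single mice were 0.80 to 1.13 and 0.83 to 1.17. With lane as covariate the differences from Young Sham were 0.84 for Young Bleo and 0.64 for Aged Bleo mice.

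The Id1 promoter region, centred 17 bp downstream of the TSS, had 157, 168, 134, 118 and 107 fragments in Young Sham, 119, 182, 166 and 138 in Young Bleo, 83, 134, 98 and 130 in Aged Sham and 177, 232, 103, 68 and 108 in Aged Bleo mice. It rose by 0.41 ± 0.11 in Aged Bleo against Young Sham (1.33-fold, limma adjusted p = 0.0119), where the groups did not overlap in relative fragments (1.91 to 2.7 against 1.37 to 1.87). With lane as covariate the difference was 0.41. The neighbouring region 1.1 kb upstream, the strongest outside the promoter by percentile of fold enrichment, had 165, 198, 164, 173 and 141 fragments in Young Sham and 219, 301, 122, 66 and 120 in Aged Bleo mice and a difference of 0.31 (95% CI 0.06 to 0.55, limma adjusted p = 0.0702). The other 6 fitted regions of Id1 passed in no comparison.

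At Id3 the promoter and the downstream region with the element rose in both Bleo groups in relative fragments. The promoter region, centred 1 bp upstream of the TSS, had 169, 202, 184, 163 and 128 fragments in Young Sham, 188, 246, 214 and 215 in Young Bleo, 103, 145, 102 and 165 in Aged Sham and 232, 287, 172, 92 and 138 in Aged Bleo mice. Relative to depth both Bleo groups (2.3 to 2.89 and 2.79 to 3.34) stood above both sham groups (1.9 to 2.22 and 2.04 to 2.29). It rose by 0.35 ± 0.09 in Young Bleo against Young Sham (limma adjusted p = 0.0156, lost without Young Bleo mouse 2), by 0.54 ± 0.08 in Aged Bleo against Young Sham (1.46-fold, limma adjusted p = 0.000207) and by 0.51 ± 0.09 in Aged Bleo against Aged Sham (1.42-fold, limma adjusted p = 0.00343). With lane as covariate the differences from Young Sham were 0.43 for Young Bleo and 0.51 for Aged Bleo mice.

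The Id3 region 4.3 kb downstream had 179, 207, 177, 214 and 135 fragments in Young Sham, 234, 312, 298 and 263 in Young Bleo, 118, 111, 104 and 183 in Aged Sham and 269, 322, 139, 103 and 157 in Aged Bleo mice. In relative fragments both Bleo groups (3.2 to 3.67 and 2.57 to 3.74) stood above both sham groups (2.13 to 2.49 and 1.61 to 2.54). The differences were 0.60 ± 0.12 in Young Bleo against Young Sham (1.51-fold, limma adjusted p = 0.00478), 0.52 ± 0.12 in Aged Bleo against Young Sham (limma adjusted p = 0.0041) and 0.59 ± 0.12 in Aged Bleo against Aged Sham (limma adjusted p = 0.00785). Within lane 8, Young Bleo mouse 4 stood at 3.42 against 2.13 to 2.49, and within lane 6 the Aged Bleo mice at 2.57 or higher against 2.54. With lane as covariate the differences were 0.62, 0.20 and 0.33, with limma adjusted p of 0.222, 0.964 and 0.887. The intronic region with the element, 1.0 kb downstream, had differences of 0.20, 0.41 and 0.52 with limma adjusted p of 0.463, 0.0714 and 0.0621.

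By fold enrichment the promoter and the intronic region of Id3 sat low in their lists. The promoter stood at a mean percentile of 5.6 ± 1.6 (SD, n = 5) in Young Sham and 14.1 ± 8.0 in Aged Bleo mice among shared regions, and the intronic region at 0.8 ± 0.1 and 1.4 ± 0.9. In Young Bleo mice the promoter stood at 6.5, 4.9, 3.2 and 6.2, a difference from Young Sham of -0.33 percentile points (limma adjusted p = 0.98), so that its rise in relative fragments in young mice was not seen on this scale. The Aged Bleo difference was 8.58 (limma adjusted p = 0.0746). In the Aged Bleo group the promoter was at 6.6 and 6.2 in the deep lists of mice 1 and 2 and at 16.1, 25.3 and 16.5 in the shallow lists of mice 3 to 5. The region 4.3 kb downstream stood higher, at 13.2, 10.5, 12.4, 17.8 and 14.1 in Young Sham and at 16.2, 15.2, 11.1, 40.3 and 31.1 in Aged Bleo mice 1 to 5.

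The number of regions with a peak was also counted per gene in each mouse and compared by an exact permutation test of the mean difference (two-sided). Acvrl1 had a peak at 6, 7, 6, 7 and 6 of its 8 regions in Young Sham mice and at 4, 5, 5 and 5 in Aged Sham mice, without overlap, and at 8, 8, 7, 4 and 7 in Aged Bleo mice. The means were 6.4 ± 0.55 (SD, n = 5), 4.75 ± 0.5 (n = 4) and 6.8 ± 1.64 (n = 5), with an exact permutation p of 0.00794, the smallest possible, for Aged Sham against Young Sham and 0.0476 for Aged Bleo against Aged Sham. Adjusted over the 10703 genes with at least 2 regions, these were 0.26 and 1. Bmp2 had 4, 4, 4, 4 and 3 regions in Young Sham and 1, 2, 2 and 3 in Aged Sham mice (exact permutation p = 0.0238, adjusted 0.319), which overlapped at 3.

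Those are 2 of 10 genes in Aged Sham against Young Sham, where 14.9% of all genes had an exact permutation p of at most 0.05, and 1 in Aged Bleo against Aged Sham, where 1.51% did. In Young Bleo against Young Sham (10.7%), Aged Bleo against Young Sham (7.22%) and Aged Bleo against Young Bleo (5.73%) it was 0 of 10. When the lists were cut to the 21050 strongest peaks each, the difference between the sham groups was -0.10 for Acvrl1 and 0.15 for Bmp2, with an exact permutation p of 1 for both, and the call was lost. Id3 had all 3 regions in every mouse.

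**Figure D4:**
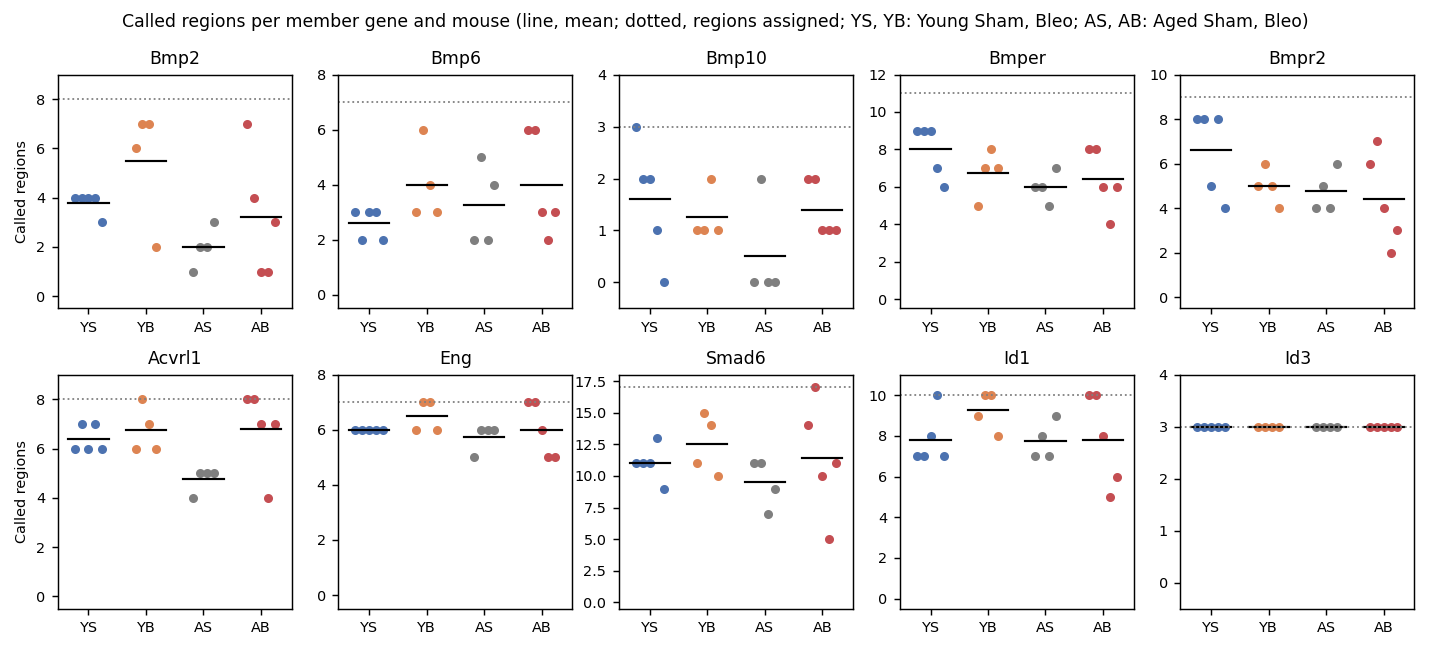
Number of regions with a called peak in each mouse (points, by group: YS, Young Sham; YB, Young Bleo; AS, Aged Sham; AB, Aged Bleo) for each of the 10 genes, with a line for the group mean and a dotted line for the number of regions assigned to the gene. For Acvrl1 the 4 Aged Sham mice lie at 4 or 5 of 8 regions and the Young Sham mice at 6 or 7, and for Id3 every mouse lies at 3.

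The wider pathway was taken as 29 further genes, of which 25 had 116 regions, 44 of them with a peak in every list. By Fisher's exact test at an unadjusted p of at most 0.05, 0 of these regions were called in more and 6 in fewer Aged Sham than Young Sham mice. In Young Bleo against Young Sham 4 and 3 were, in Aged Bleo against Young Sham 0 and 3, in Aged Bleo against Aged Sham 0 and 0, and in Aged Bleo against Young Bleo 0 and 2. These are 5.17% of the 116 regions in fewer Aged Sham mice (4.9% of all regions), 3.45% and 2.59% in Young Bleo (3.98% and 1.96%), 2.59% in fewer Aged Bleo than Young Sham mice (3.01%) and 1.72% in fewer Aged Bleo than Young Bleo mice (2.44%), near the shares of all regions. The type I and type II receptor genes Bmpr1a, Bmpr1b, Acvr1, Acvr2a and Acvr2b had 15 regions, with 2 called in fewer Young Bleo than Young Sham mice and 0 in the other 4 comparisons. The element GGCGCCNNNNNGTCT was found in 1 of the 116 windows, in the region at -2731 bp from the TSS of Id2, an Id gene like Id1 and Id3.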

How the data were processed

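Per the labels and the study's methods, the authors aligned ATAC-seq reads to mm10 with BWA 0.5.9, removed duplicates with Picard 1.67 and called peaks in each mouse separately with MACS2 2.0.10 at a false discovery rate of 1%. The deposited lists give for each peak the fold enrichment (ratio) at the summit, its −log10 p, its −log10 q and a score. No replicates were pooled, and read totals were not used here.

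The 593980 nuclear peaks were merged into regions and the 19 mitochondrial peaks left out; nearest genes came from mm10 RefSeq annotation. The members and lists were chosen with earlier results of these data known. Presence was tested by Fisher's exact test, called regions per gene by an exact permutation test, and strength by limma 3.58.1 (R 4.3.3), all with Benjamini-Hochberg adjustment over all features and all 4 groups in each limma fit. Strength was the percentile of fold enrichment within a list over 17432 shared regions. Fragments at the summit were solved from fold enrichment and −log10 p with MACS2's pseudocount of 1, and came out whole within 0.05 for at least 99.98% of peaks in each list; this scale and its alternatives were added after seeing the data. Named regions were promoters, the strongest region of each gene outside the promoter and, by smallest p, up to 4 regions of each gene passing a test; further regions were named after their values had been seen. Counting error limits weak peaks: the median summit held 26 to 35 fragments. The tests were checked on simulated data. Python 3.11.15, numpy 2.4.6, scipy 1.17.1, pandas 2.3.3 and matplotlib 3.10.9 were used. Alternatives included stricter peak thresholds, equal peak numbers, other strength measures, lane as covariate, a replicate block and leaving out each mouse.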

Additional observations from a re-analysis of the deposited data

Results flagged for a closer look

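In 12 of 148 group values tested for a mouse far from the others of its group, 1 mouse stood apart. The rate of about 1 in 20 by chance does not apply to counts of regions. There, a mouse that differs from others with tied counts is always flagged. The 12 are therefore not set against that rate. For regions with a peak per gene, Young Sham mouse 5 had 3 Bmp2 regions (median of the others 4), Young Bleo mouse 3 had 2 Bmp10 regions (1), Aged Sham mouse 2 had 2 Bmp10 regions (0), Aged Sham mouse 1 had 4 Acvrl1 regions (5) and 5 Eng regions (6), and Aged Bleo mouse 4, the shallowest list, had 4 Acvrl1 regions (7.5).

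For relative summit fragments, Young Sham mouse 1 stood at 0.714 at Acvrl1 12.8 kb downstream (median of the others 0.627), and Young Sham mouse 4 at 2.49 at Id3 4.3 kb downstream (2.16). At Bmpr2 69.7 kb downstream Young Bleo mouse 4 stood at 0.26 (0.441) and Aged Sham mouse 4 at 0.361 (0.464), each of them the only mouse of its group on its lane. Young Bleo mouse 2 stood at 1.65 at Eng 9.4 kb downstream (1.15), and Aged Sham mouse 1 at 0.9 at Smad6 53.3 kb downstream (1.2).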

How the results depend on the processing

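Member counts in this section are given without the share of all regions or genes called under the same setting, which can shift as well. They describe how the calls move and not how members compare with the rest. For presence of a peak, the number of member regions called became 1 in Aged Sham and 1 in Aged Bleo against Young Sham with a −log10 q of at least 5. With a fold enrichment of at least 5 it was 1 in Aged Bleo against Young Sham and 1 against Aged Sham. With equal peak numbers it was 0 in Aged Sham against Young Sham and 1 in Aged Bleo against Aged Sham, and with 50% of the region covered 1 in Aged Bleo against Aged Sham and 2 against Young Bleo. For strength by percentile, ranking by −log10 p called 4 regions for Young Bleo and 12 for Aged Bleo mice against Young Sham, 6 in Aged Bleo against Aged Sham and 1 against Young Bleo. Taking uncalled regions as 0 called 1 in Aged Sham and 1 in Young Bleo against Young Sham, and lane as covariate 0 in Aged Bleo against Young Sham.

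For summit fragments, Young Bleo against Young Sham gave 8 called regions over shared regions only, 7 by percentile of fragments, 9 over all regions with the common limit and 1 with lane, which rests on Young Bleo mouse 4. Aged Bleo against Young Sham gave 32 with each list's own limit and 0 with lane, and Aged Bleo against Aged Sham 0 with lane. Aged Bleo against Young Bleo gave 3, 1, 0 and 0 with shared regions, percentile, each list's limit and lane. With lane, 5 of 27 percentile and 16 of 53 fragment differences of Aged Bleo from Young Sham changed sign. Among them were Bmper 27.2 kb downstream, to -10.12 percentile points, and Acvrl1 12.8 kb downstream, to -0.07 in log2 fragments, both called without lane. Bmp2 200.7 kb upstream turned to -0.76 in log2 fragments, but every Young Sham mouse lay at the limit there and no test is given. For regions per gene, equal peak numbers gave 0 genes in Aged Sham against Young Sham, where the Bmp2 difference turned to 0.15, 3 in Young Bleo against Young Sham and 0 in Aged Bleo against Aged Sham. Regions within 100 kb gave 1 in Aged Sham, and a fold enrichment of at least 5 gave 1 in Young Bleo, against Young Sham. The cause of these shifts was not tested.

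Leaving out single mice gave 0 to 2, 0 to 2, 3 to 6, 0 to 1 and 0 to 0 regions by presence, first for the comparisons of Aged Sham, Young Bleo and Aged Bleo mice with Young Sham and then for Aged Bleo against Aged Sham and Young Bleo. In that order it gave 0, 0, 0 to 3, 0 and 0 by percentile, 0 to 1, 8 to 15, 17 to 25, 6 to 12 and 1 to 5 by fragments, and 1 to 2, 0 to 1, 0, 0 to 1 and 0 genes by called regions; both interactions stayed at 0.

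Same-numbered mice did not deviate together: over 21 pairs the correlations were -0.196 to 0.174 for presence (3 above 0.1) and -0.193 to 0.335 for percentile (5 above 0.1), so the numbers do not pair the mice. With a replicate block, presence gave 0 regions and called regions 0 genes in all 5 comparisons, where the smallest paired p is 0.0625 or 0.125 (exact tests). The block gave 2 regions by percentile in Aged Bleo against Young Sham and 0 elsewhere, and 1, 11, 23, 9 and 4 by fragments in the order above.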
